A study of Homo sapiens with 21 samples.

Results

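The circular RNAs (circRNAs) hsa_circ_1933, hsa_circ_1934, hsa_circ_1940 and hsa_circ_1946, which stand close together in the numbering of a table of lung cell lines, were followed through 21 sequencing libraries. They are 4 of the 124082 circRNAs in the table and 4 of the 9175 that passed a filter on low counts. They were chosen by their read counts in this same table, as numbered neighbours with high levels in PC-9 cells, so their height in PC-9 relative to the other lines is described here without a test. That description held for hsa_circ_1933, hsa_circ_1934 and hsa_circ_1946. It did not hold for hsa_circ_1940, which stood higher in NCI-H1975 cells than in PC-9 cells.

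A circRNA is a transcript closed into a ring, made when the end of an exon is joined back to the start of an exon that lies upstream of it. It has no free ends and is therefore poorly attacked by exonucleases, and it is recognised in sequencing by reads that cross the back-splice junction. A gene can give rise to several circRNAs when different exons are joined, and which of them are made can differ between cell types. The numbers used here belong to the table alone. They come without gene names or coordinates, so no host gene, sequence or function was assigned to any of the 4.

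The libraries came from 7 groups of 3. PC-9, an EGFR-mutant lung cancer line, was sequenced as gefitinib-resistant cells, which received 1 µM of that EGFR inhibitor, and as cells without a resistance code. NCI-H1975, another EGFR-mutant lung cancer line, was sequenced as cells resistant to osimertinib (a later EGFR inhibitor) that received 1 µM of it, as cells transfected with FASN, as cells transfected with the plasmid pCMV6, and as cells with neither code. FASN is fatty acid synthase, and both transfected groups were kept in 50 µg/ml of the selection agent G418. NL20, an immortalized bronchial epithelial line that does not form tumours, was the normal control. Nothing in the labels tells if replicate libraries go back to separate cultures, or if a resistant line was 1 clone, so the p-values measure the spread between libraries, which may be technical.

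Library totals lay between 95808 and 203079 reads. The 4 circRNAs together took between 0.386% and 0.484% of the reads of a gefitinib-resistant PC-9 library and between 0.541% and 0.644% of a PC-9 library. They took 0.151% to 0.187% in osimertinib-resistant NCI-H1975, 0.156% to 0.201% in NCI-H1975 and 0.0359% to 0.0584% in NL20. Osimertinib-resistant replicate 2 stood apart from the other libraries. A chi-square comparison of counts, divided by its degrees of freedom, gave 4.37 and 4.80 for the pairs of its group that held it and between 2.07 and 2.68 for the 19 other pairs within groups. The changes in level and share of the 4 with osimertinib resistance are therefore also given without it. Other descriptions of that group keep it.

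hsa_circ_1933 and hsa_circ_1934 were read mainly in PC-9. Levels are given in CPM, reads scaled to a common total of reads in tested circRNAs and adjusted between libraries by the trimmed mean of M values. In bulk RNA, fewer cells that carry a circRNA and less of it per cell cannot be told apart. hsa_circ_1933 stood at 1300, 1447 and 1099 CPM in the gefitinib-resistant PC-9 libraries and at 2054, 2093 and 2059 CPM in the PC-9 libraries. In osimertinib-resistant NCI-H1975 it stood at 272.3, 516.6 and 314.5 CPM, and in NCI-H1975 at 124.8, 35.7 and 121.0 CPM. These 4 groups did not overlap with each other. The FASN, pCMV6, NCI-H1975 and NL20 groups, with means between 93.8 and 116.8 CPM, overlapped with their neighbours in the order of levels. PC-9 held 20.8 times the mean CPM of NL20, and its lowest library stood above the highest of every other group.

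hsa_circ_1934 had the same order in its upper groups. It stood at 2154, 2049 and 1960 CPM in gefitinib-resistant PC-9 and at 3375, 3471 and 3868 CPM in PC-9, where it ranked 11 among all circRNAs tested. Osimertinib-resistant NCI-H1975 had 464.0, 482.2 and 695.8 CPM and NCI-H1975 had 249.7, 196.1 and 290.4 CPM. NL20 had 271.3, 174.5 and 272.7 CPM, and the FASN and pCMV6 libraries lay between 104.1 and 320.6 CPM. PC-9 was thus 14.6-fold above NCI-H1975 and 14.9-fold above NL20, while NCI-H1975, NL20, FASN and pCMV6 overlapped. Over the 21 libraries, hsa_circ_1933 was the circRNA with the highest Pearson correlation to hsa_circ_1934 among 9174 others, and the reverse also held (r = 0.96 for log2 CPM). This r is a description over libraries that share groups and cell lines, and both circRNAs were chosen as high in PC-9.

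hsa_circ_1946 was also high in PC-9, but it differed from that pair at the low end. Gefitinib-resistant PC-9 libraries had 1733, 1808 and 1518 CPM and PC-9 libraries 1259, 1232 and 1297 CPM. Osimertinib-resistant NCI-H1975 had 1029, 884.0 and 810.1 CPM, and NCI-H1975 had 364.9, 338.7 and 403.3 CPM. PC-9 had 400 reads of it and NCI-H1975 had 126, whereas NL20 had 2, both in replicate 2. From reads pooled by group, the level in PC-9 was 247.3 times that in NL20 (95% exact conditional interval 68.0 to 2049). This interval covers counting error only and is not a test, since PC-9 was part of the choice. By mean CPM that ratio was 271.3. In NCI-H1975 the pooled ratio to NL20 was 72.8 (19.7 to 607.7), and by mean CPM it was 79.3. PC-9 held 3.42 times the mean CPM of NCI-H1975, a smaller gap than for hsa_circ_1933 and hsa_circ_1934.

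hsa_circ_1940 had another order altogether. Gefitinib-resistant PC-9 libraries had 597.1, 1063 and 566.4 CPM and PC-9 libraries 866.9, 809.4 and 916.4 CPM, and these groups overlapped. Osimertinib-resistant NCI-H1975 had 312.7, 482.2 and 324.1 CPM, below every other NCI-H1975 group. FASN cells had 1159, 1413 and 1221 CPM, pCMV6 cells 1527, 1533 and 1444 CPM, and NCI-H1975 cells 1939.9, 1489 and 1823 CPM. NCI-H1975 and pCMV6 were the highest groups and overlapped, FASN followed without overlap, and the PC-9 groups came next. NL20, at 324.1, 258.3 and 366.4 CPM, was lowest and overlapped with osimertinib-resistant NCI-H1975. PC-9 thus held 0.494 times the mean CPM of NCI-H1975 and 2.73 times that of NL20. The Pearson r of hsa_circ_1940 over the 21 libraries was -0.17 with hsa_circ_1933, -0.18 with hsa_circ_1934 and 0.30 with hsa_circ_1946.

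**Figure D1:**
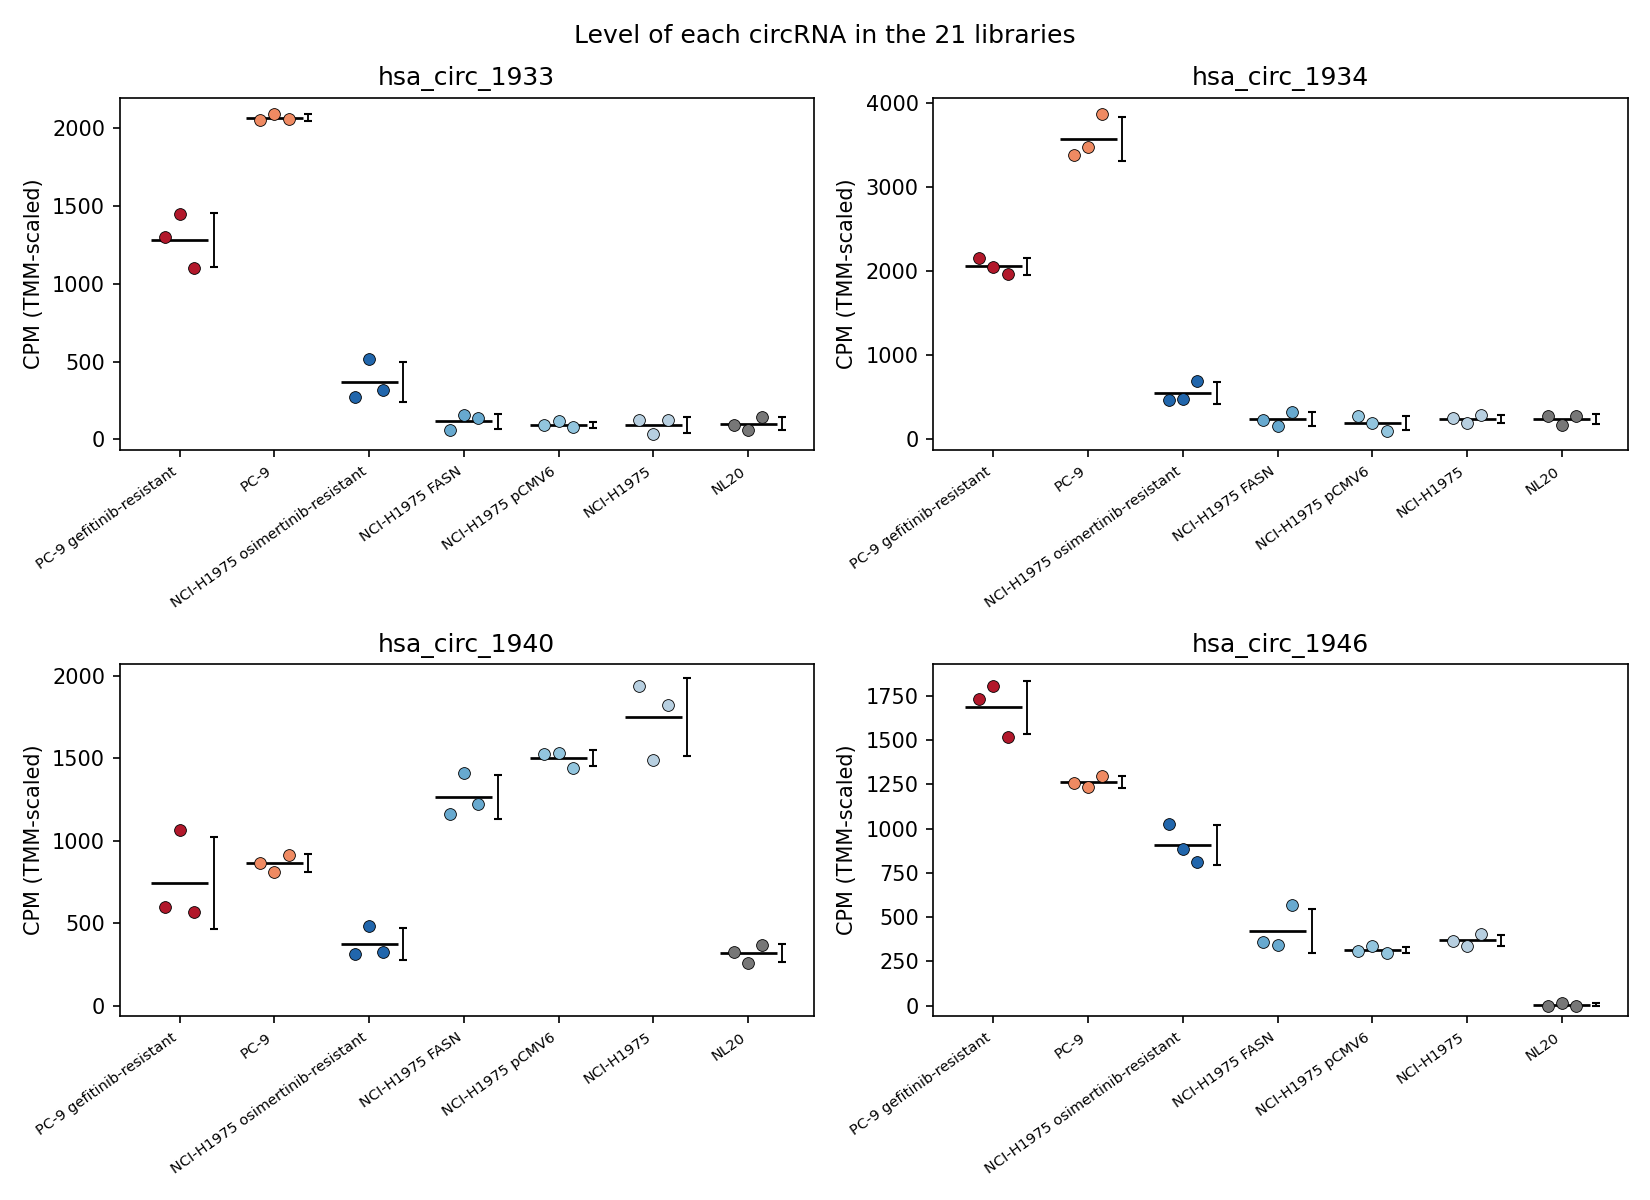
Level of each of the 4 circRNAs in CPM (vertical axis, linear) in the 7 groups. Points are libraries, the line is the mean of 3 and the bar at its side is ± 1 SD; hsa_circ_1940 is highest in NCI-H1975 libraries (1489 to 1939.9 CPM), whereas the other 3 are highest in PC-9 groups.

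Osimertinib resistance in NCI-H1975 was the comparison in which all 4 circRNAs changed. The question is which circRNA levels differ once the line is resistant. It is not the comparison by which the 4 were picked, although its libraries had been seen when they were. hsa_circ_1933, hsa_circ_1934 and hsa_circ_1946 rose and hsa_circ_1940 fell. For hsa_circ_1933 the mean was 367.8 ± 130.6 CPM in resistant cells and 93.8 ± 50.4 CPM in NCI-H1975 (SD, n = 3), and for hsa_circ_1934 it was 547.3 ± 128.9 CPM in resistant cells and 245.4 ± 47.3 CPM in NCI-H1975. For hsa_circ_1946 it was 907.6 ± 111.2 CPM in resistant cells and 369.0 ± 32.5 CPM in NCI-H1975. hsa_circ_1940 fell to 373.0 ± 94.7 CPM in resistant cells, against 1750 ± 234 CPM in NCI-H1975. No resistant library overlapped with an NCI-H1975 library for any of the 4. How many of all circRNAs tested were separated in that way was not counted, so the separation is only described.

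The changes were tested with edgeR's quasi-likelihood test over all 9175 circRNAs, with Benjamini-Hochberg adjustment and a call made at an adjusted p under 0.05. The log2 change was 1.94 ± 0.33 (SE) for hsa_circ_1933, a 3.85-fold rise (edgeR adjusted p = 1.85e-06). It was 1.15 ± 0.25 for hsa_circ_1934 (edgeR adjusted p = 0.000512) and 1.29 ± 0.25 for hsa_circ_1946 (edgeR adjusted p = 6.96e-05), which are 2.23-fold and 2.45-fold rises. For hsa_circ_1940 it was -2.24 ± 0.23, a 4.71-fold fall, with an edgeR adjusted p of 2.87e-18, the second smallest p of all circRNAs tested. The test called 2.52% of all circRNAs, 1.36% higher and 1.16% lower, and it called all 4 of these. This background is not matched for level, and well-counted circRNAs are easier to call. By mean CPM in NCI-H1975 the 4 ranked between 34 and 2274 among those tested. Of the circRNAs called, 43 had a larger fall than hsa_circ_1940. The median log2 change was 1.22 over the 4 and -0.05 over all circRNAs tested.

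Without osimertinib-resistant replicate 2 the log2 changes were 1.63, 1.23, 1.31 and -2.46 for hsa_circ_1933, hsa_circ_1934, hsa_circ_1946 and hsa_circ_1940, and all 4 stayed called. The call of hsa_circ_1934 was lost without osimertinib-resistant replicate 3 (edgeR adjusted p = 0.0513). Without the filter on low counts it was lost too (0.347), as was that of hsa_circ_1946 (0.123).

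**Figure D2:**
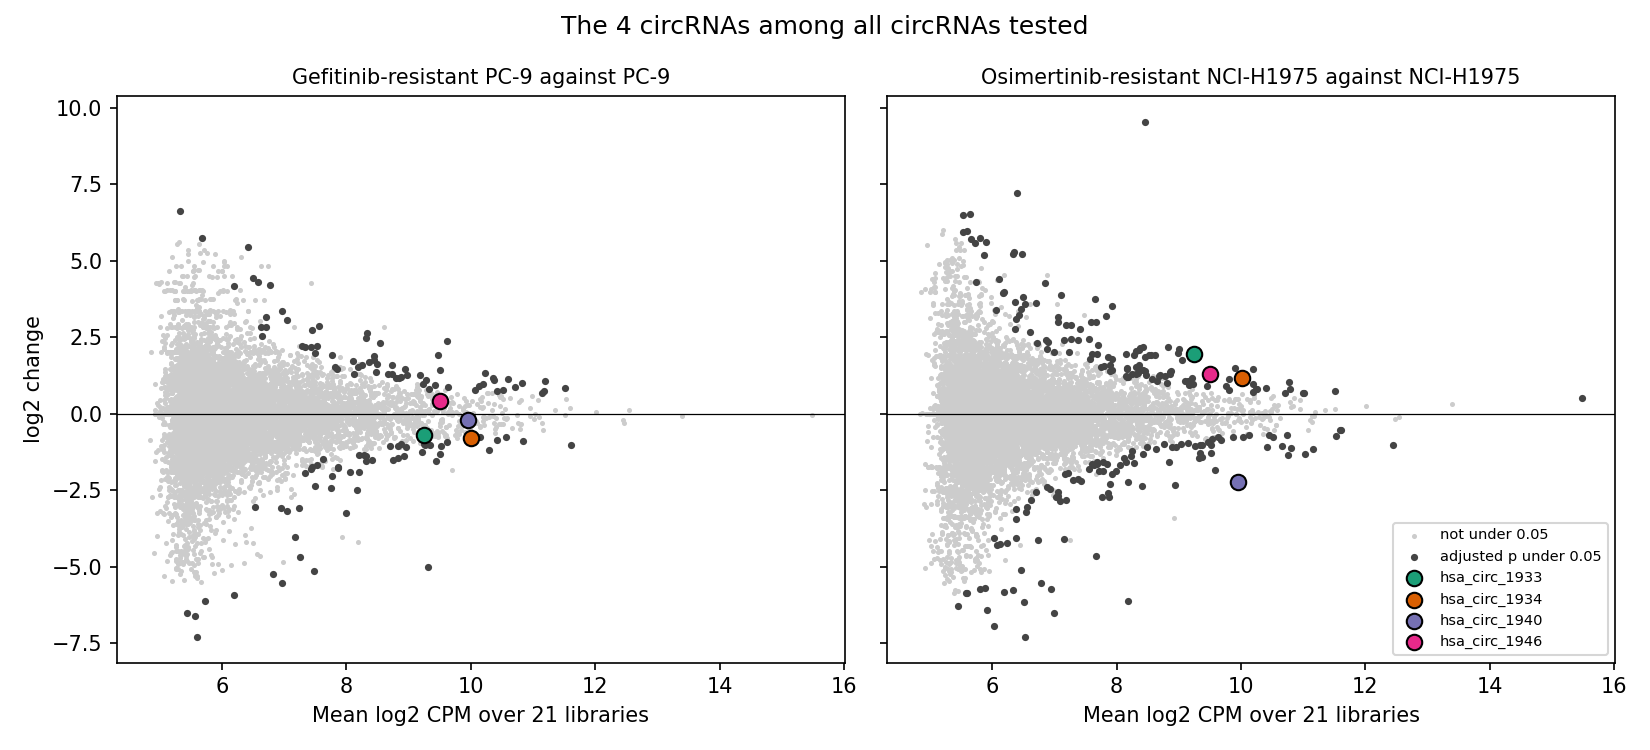
Mean log2 CPM over the 21 libraries (horizontal axis) and log2 change (vertical axis) of all 9175 circRNAs tested, for gefitinib resistance in PC-9 (left) and osimertinib resistance in NCI-H1975 (right). Dark points have an edgeR adjusted p under 0.05; hsa_circ_1940 lies at -2.24 on the right and the other 3 lie between 1.15 and 1.94.

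Gefitinib resistance in PC-9 gave smaller differences. hsa_circ_1934 fell, with 2054 ± 97 CPM in resistant cells and 3571 ± 262 CPM in PC-9 (SD, n = 3), a log2 change of -0.80 ± 0.20 SE (edgeR adjusted p = 0.0120). hsa_circ_1933 had 1282 ± 175 CPM in resistant cells and 2068 ± 21 CPM in PC-9, a log2 difference of -0.69 ± 0.24 that did not pass the test (edgeR adjusted p = 0.157). hsa_circ_1946 had 1686 ± 151 CPM in resistant cells and 1263 ± 33 CPM in PC-9, a log2 difference of 0.42 ± 0.23 (edgeR adjusted p = 0.505). For these 3 the resistant libraries did not overlap with the PC-9 libraries. The share of all circRNAs tested that were separated in this comparison was not counted, and only hsa_circ_1934 was called. hsa_circ_1940 had 742.2 ± 278.3 CPM in resistant cells and 864.2 ± 53.5 CPM in PC-9, and the groups overlapped (log2 -0.21 ± 0.22, edgeR adjusted p = 0.828).

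The test called 1.35% of all circRNAs for gefitinib resistance, 0.73% higher and 0.621% lower, and 1 of the 4. The call of hsa_circ_1934 held without PC-9 replicate 1 and was lost when any other of the 6 libraries was left out, with an edgeR adjusted p between 0.0619 and 0.165, and when no filter was applied. In a fit of the 6 PC-9 libraries alone hsa_circ_1933 was called as well (edgeR adjusted p = 0.00490).

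The change with resistance differed between the lines for 3 of the 4. The gefitinib change in PC-9 minus the osimertinib change in NCI-H1975 was -2.63 ± 0.41 (SE) on the log2 scale for hsa_circ_1933 and -1.95 ± 0.32 for hsa_circ_1934 (edgeR adjusted p = 2.92e-07 and 1.44e-06). It was 2.02 ± 0.32 for hsa_circ_1940 (edgeR adjusted p = 5.09e-07). For hsa_circ_1946, which stood higher in the resistant cells of both lines, it was -0.88 ± 0.34 and did not pass the test (edgeR adjusted p = 0.207). This difference was called for 1.77% of all circRNAs. Drug and cell line changed together in it and cannot be told apart. The PC-9 libraries, which were part of the choice of the 4, enter it too, and its p-values do not allow for that.

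Transfection gave no call among the 4. In FASN against pCMV6 cells, the comparison that asks which circRNAs go with FASN, the log2 differences lay between -0.24 ± 0.21 (SE) for hsa_circ_1940 and 0.42 ± 0.28 for hsa_circ_1946, with edgeR adjusted p-values of 0.877 and 0.790. The background there was 0.316% of all circRNAs called, or 29, and 729 had an unadjusted p under 0.05. In pCMV6 against NCI-H1975 cells the values lay between -0.36 ± 0.29 for hsa_circ_1934 and 0.01 ± 0.41 for hsa_circ_1933 (edgeR adjusted p = 0.862 and 1.00), with a background of 0.36%, or 33, and 722 with an unadjusted p under 0.05. None of the 4 had an unadjusted p under 0.05 in either comparison, and DESeq2 called none of them. These comparisons share the pCMV6 libraries.

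**Figure D3:**
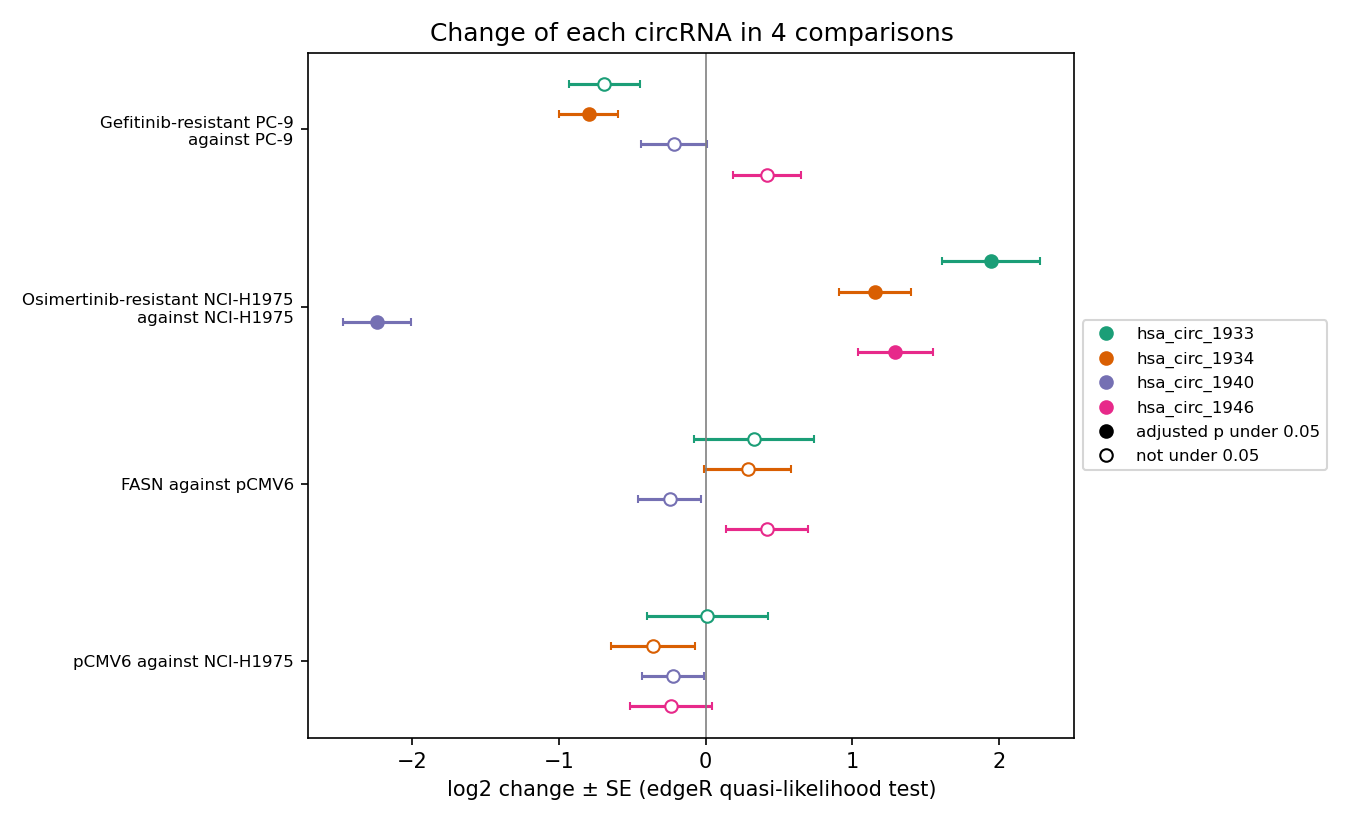
The log2 change ± SE of each circRNA (horizontal axis) in 4 comparisons (vertical axis), from edgeR's quasi-likelihood test. Filled points have an adjusted p under 0.05: all 4 with osimertinib resistance, hsa_circ_1934 with gefitinib resistance, and none in the comparisons of transfected cells.

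The reads of the 4 circRNAs were next divided among them within each library. This share does not depend on library depth or scaling. The 4 shares of a library add up to the whole, so a fall in any of them raises the rest. The table gives no lengths, so shares are of reads and are compared between groups rather than between circRNAs. The chi-square of the division over the 3 libraries of a group, per degree of freedom, was 2.30 for gefitinib-resistant PC-9 libraries and 0.315 for PC-9 libraries. For osimertinib-resistant NCI-H1975 it was 3.30, where counting alone gives a value near 1. It was 2.29 in FASN, 0.902 in pCMV6, 0.859 in NCI-H1975 and 1.15 in NL20 cells.

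Across cell lines the division was as follows, given without a test because PC-9 was part of the choice. hsa_circ_1934 took 45.9% ± 1.4 of the 2459 reads in PC-9 (SD, n = 3), 9.95% ± 0.92 of the 837 reads in NCI-H1975 and 36.2% ± 2.9 of the 256 reads in NL20. hsa_circ_1933 took 26.7% ± 1.2 in PC-9, 3.66% ± 1.67 in NCI-H1975 and 14.7% ± 3.3 in NL20. hsa_circ_1940 took 11.1% ± 0.4 in PC-9, 71.3% ± 1.9 in NCI-H1975 and 48.2% ± 2.1 in NL20. hsa_circ_1946 took 16.3% ± 0.4 in PC-9 and 15.1% ± 1.4 in NCI-H1975, and 2 of 256 reads in NL20, a pooled share of 0.781% (exact 95% interval 0.0948 to 2.79).

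Osimertinib resistance went with a different division of a similar sum. The 4 circRNAs together stood at 2078, 2365 and 2145 CPM in resistant cells and at 2679, 2059 and 2637 CPM in NCI-H1975, and these groups overlapped. The share of hsa_circ_1940 was 15.0%, 20.4% and 15.1% in the resistant libraries and 72.4%, 72.3% and 69.1% in the NCI-H1975 libraries, a difference of -54.4 percentage points. hsa_circ_1946 took 49.5%, 37.4% and 37.8% in resistant libraries and 13.6%, 16.5% and 15.3% in NCI-H1975 libraries, with no overlap. The difference was 12.9 points for hsa_circ_1933 and 15.1 points for hsa_circ_1934. No group overlapped for any of the 4, and the exact two-sided permutation p was 0.1 for each, the smallest that 3 libraries against 3 can give. Without osimertinib-resistant replicate 2 the differences were 10.2 points for hsa_circ_1933, 17.4 for hsa_circ_1934, -56.2 for hsa_circ_1940 and 28.5 for hsa_circ_1946.

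Gefitinib resistance went with a smaller shift, of a lower sum. The 4 circRNAs together stood at 5784, 6367 and 5143 CPM in resistant cells and at 7554, 7606 and 8141 CPM in PC-9. hsa_circ_1946 took 30.0%, 28.4% and 29.5% of the reads in resistant libraries and 16.7%, 16.2% and 15.9% in PC-9 libraries, a difference of 13.0 points. hsa_circ_1934 took 35.8% ± 3.2 in resistant cells and 45.9% ± 1.4 in PC-9, and hsa_circ_1933 took 22.2% ± 0.7 in resistant cells and 26.7% ± 1.2 in PC-9 (SD, n = 3). Each of these 3 had groups without overlap and an exact permutation p of 0.1. hsa_circ_1940 took 10.3%, 16.7% and 11.0% in resistant libraries and 11.5%, 10.6% and 11.3% in PC-9 libraries, which overlapped (exact permutation p = 0.9), and the sign of its difference turned without gefitinib-resistant replicate 2. None of these 8 tests of shares could reach 0.05, and no adjustment was made over them. Those of the same comparison are not independent, since the shares are bound together. The PC-9 libraries of the gefitinib comparison were also part of the choice of the 4. In both lines the share of hsa_circ_1946 was higher in resistant cells, although its level was called only with osimertinib resistance.

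**Figure D4:**
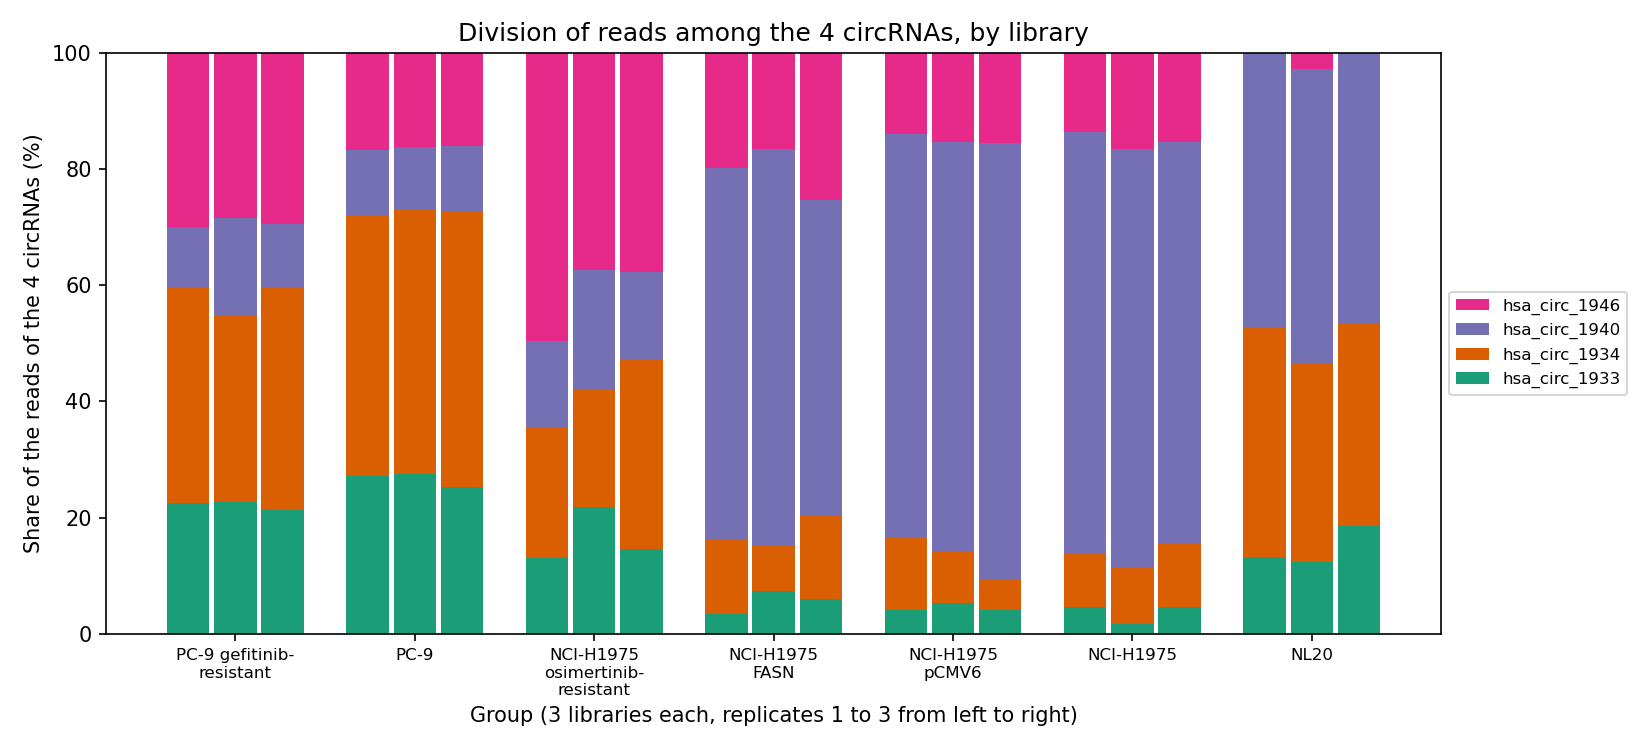
Share of each circRNA (vertical axis, percent) in the summed reads of the 4, for each of the 21 libraries in 7 groups (horizontal axis). hsa_circ_1940 takes 15.0% to 20.4% in osimertinib-resistant NCI-H1975 and 69.1% to 72.4% in NCI-H1975; hsa_circ_1946 takes 28.4% to 30.0% in gefitinib-resistant PC-9 and 15.9% to 16.7% in PC-9.

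The distance between 2 divisions can be given as the percentage of reads that would have to move to another of the 4 circRNAs. From osimertinib-resistant NCI-H1975 it was 16.4 points to gefitinib-resistant PC-9, 31.0 points to PC-9, 42.5 points to NL20 and 54.4 points to NCI-H1975. FASN and pCMV6 cells lay at 9.07 and 1.24 points from NCI-H1975. These distances are descriptions of group means.

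The ratio of one circRNA to another within a library is given next, as a description without a test. hsa_circ_1933 had 0.623 ± 0.075 reads per read of hsa_circ_1934 in gefitinib-resistant PC-9 (SD, n = 3) and 0.581 ± 0.042 in PC-9, and these overlapped. In osimertinib-resistant NCI-H1975 the ratio was 0.703 ± 0.326 (0.587, 1.07 and 0.452 in the order of replicates). In NCI-H1975 it was 0.366 ± 0.165, which overlapped with the resistant cells, and in NL20 it was 0.408 ± 0.107. hsa_circ_1946 had 0.820 ± 0.056 reads per read of hsa_circ_1934 in gefitinib-resistant PC-9 and 0.355 ± 0.019 in PC-9, with no overlap. That ratio was 1.74 ± 0.53 in osimertinib-resistant NCI-H1975 and 1.53 ± 0.18 in NCI-H1975, where the libraries overlapped. The ratio of hsa_circ_1940 to hsa_circ_1934 was 0.713 ± 0.269 in osimertinib-resistant NCI-H1975 and 7.21 ± 0.81 in NCI-H1975.

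Since hsa_circ_1933, hsa_circ_1934 and hsa_circ_1946 are high in PC-9 and rose in osimertinib-resistant NCI-H1975, other circRNAs that tell the lines apart were read in the same cells, from lists made after the data were seen. Of 204 circRNAs with at least 30 reads in the 6 PC-9 libraries and none in NCI-H1975, 67 had reads in osimertinib-resistant NCI-H1975, 44 in FASN, 49 in pCMV6 and 98 in NL20 cells. Their summed level was 1756 to 2471 CPM in osimertinib-resistant libraries, 407 to 518 CPM in FASN and 709 to 894 CPM in pCMV6. It was higher in NL20, at 8125 to 9020 CPM, and stood at 32492 to 36490 CPM in PC-9 libraries. Of 42 circRNAs with at least 30 reads in NCI-H1975 and none in PC-9, 40 had reads in osimertinib-resistant cells. In FASN cells 42 had reads, in pCMV6 cells 41 and in NL20 cells 24. Their summed level was 7501 to 8093 CPM in osimertinib-resistant, 13593 to 14068 CPM in FASN and 8504 to 9146 CPM in pCMV6 libraries. It was 2186 to 3016 CPM in NL20, and 13282 to 14308 CPM in NCI-H1975, by whose reads they were chosen. None of the 4 circRNAs could be in either list, since each had reads in both PC-9 and NCI-H1975. What part the pattern of these lists plays in the changes of the 4 was not tested.

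The other circRNAs in the numbered stretch were looked at as neighbours. Of the 10 numbered between the 4, 5 passed the filter, and their totals over all libraries ran from 2 to 1050 reads. With osimertinib resistance 2 of the 5 rose, hsa_circ_1936 (log2 2.45 ± 0.64 SE, edgeR adjusted p = 0.00969) and hsa_circ_1937 (log2 2.11 ± 0.35, edgeR adjusted p = 8.31e-07), named after their values were seen. Of all circRNAs tested, 1.36% were called higher. hsa_circ_1937 stood at a mean of 372.2 CPM in resistant cells, 84.2 CPM in NCI-H1975, 1184 CPM in PC-9 and 421.5 CPM in NL20. hsa_circ_1936 stood at 133.0 CPM in resistant cells, 24.6 CPM in NCI-H1975, 465.3 CPM in PC-9 and 74.9 CPM in NL20. Of the 20 numbered before and the 20 numbered after the 4, 19 passed the filter and 1 rose, hsa_circ_1928, also named for its value (log2 2.07 ± 0.39, edgeR adjusted p = 2.53e-05). None of these 24 tested neighbours was called lower with osimertinib resistance, against 1.16% of all circRNAs tested. With gefitinib resistance 1 of the 24 was called, hsa_circ_1954, with 1 read in resistant cells and 27 in PC-9, likewise named after the fact (edgeR adjusted p = 0.0118). That comparison called 1.35% of all circRNAs tested.

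**Figure D5:**
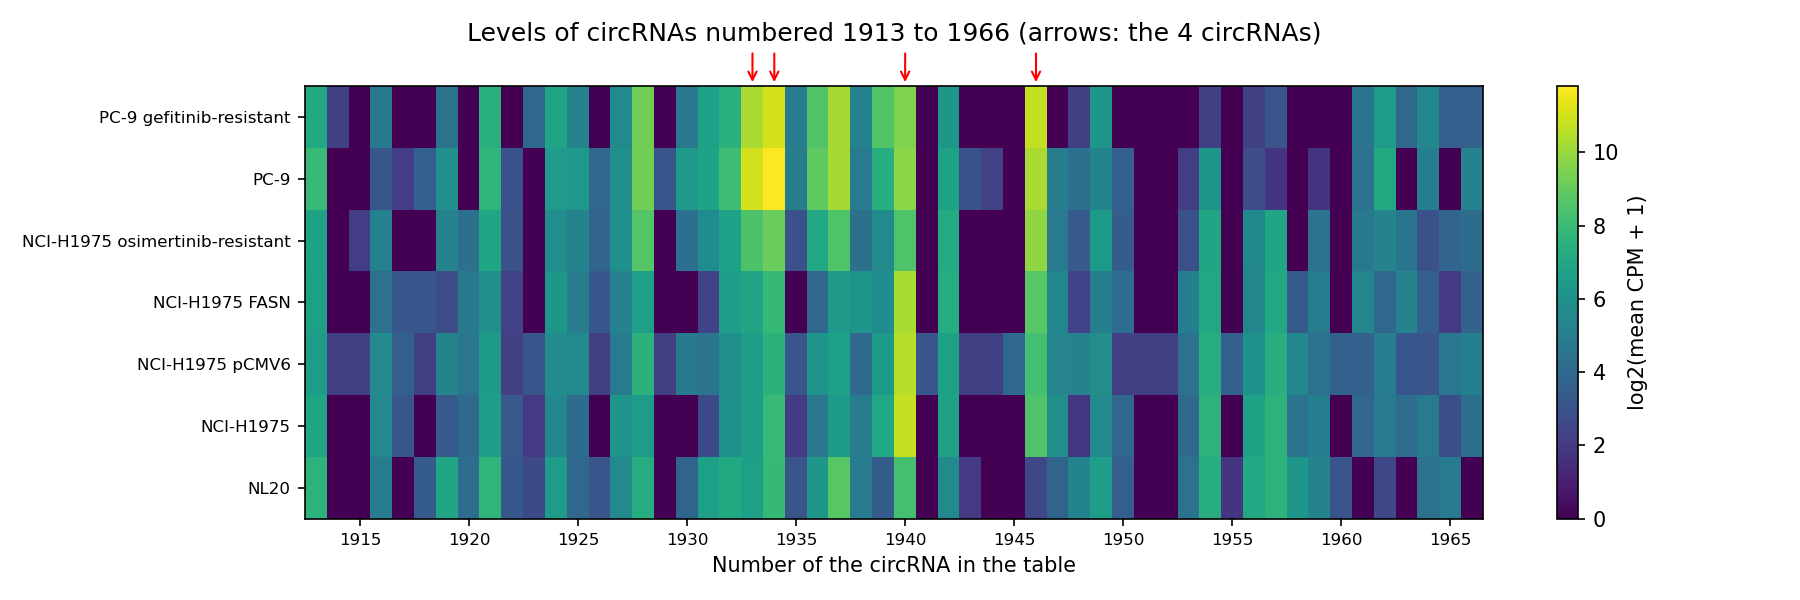
Mean level of the 4 circRNAs, the 10 numbered between them and the 20 on each side, in the order of the table (horizontal axis), as log2 of mean CPM plus 1 (colour), in the 7 groups (vertical axis). Arrows mark the 4 circRNAs; hsa_circ_1936 and hsa_circ_1937 between them share the bright cells of the PC-9 groups and are brighter in osimertinib-resistant NCI-H1975 than in NCI-H1975.

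With the 4 themselves left out, the circRNAs whose pattern over the 21 libraries was most like their summed level carry distant numbers. Among the other circRNAs tested, hsa_circ_10547 and hsa_circ_6116 had the highest Pearson correlations, both 0.94, of log2 CPM with the log2 of the summed CPM. hsa_circ_10547 stood at a mean of 4218 CPM in gefitinib-resistant PC-9 and 2508 CPM in PC-9, at 401.9 CPM in osimertinib-resistant NCI-H1975 and 865.4 CPM in NCI-H1975, and at 28.9 CPM in NL20. hsa_circ_6116 stood at 965.1 CPM in gefitinib-resistant PC-9 and 1180 CPM in PC-9, at 336.0 CPM in osimertinib-resistant NCI-H1975 and 349.7 CPM in NCI-H1975, and at 91.9 CPM in NL20. In FASN cells it stood at 321.8 CPM and in pCMV6 cells at 262.9 CPM. The libraries behind these correlations share cell lines and groups, so no p is given.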

How the data were processed

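The authors deposited raw counts, whole numbers of reads for each circRNA and library. Per the submitters' processing notes, hg38, HISAT2 and DESeq2 were used, without versions or roles. Caller and annotation: not given in the sources used here. Columns were matched to samples by name. Counts were fitted in edgeR 4.0.16 (R 4.3.3): filterByExpr (minimum count 5, minimum total 15) kept 9175 of 124082 circRNAs, TMM scaling was applied, and 1 robust quasi-likelihood model with a mean per group was fitted to all 21 libraries. The code was tested on simulated data. SE is the log2 change divided by the square root of F. CPM use the scaled total of reads in circRNAs tested; log2 CPM used a prior count of 2. Shares were compared by exact permutation in SciPy 1.17.1. The 4 circRNAs and the rules for naming others were chosen with earlier results of these data known. The rule named these 4 and the 2 other circRNAs most correlated with their sum. Called neighbours were named after their values were seen. Library totals, 95808 to 203079 reads, limit precision, and intervals cover counting error only, since PCR reads without molecular identifiers are not independent molecules. Alternatives were RLE or no scaling, other filters, DESeq2 1.42.0, fewer libraries and a replicate block.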

Additional observations from a re-analysis of the deposited data

Results flagged for a closer look

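The change with resistance differed between gefitinib in PC-9 and osimertinib in NCI-H1975 for 3 of the 4 circRNAs when that difference was itself tested in edgeR. The gefitinib change in PC-9 minus the osimertinib change in NCI-H1975 was -2.63 on the log2 scale for hsa_circ_1933, -1.95 for hsa_circ_1934 and 2.02 for hsa_circ_1940 (edgeR adjusted p = 2.92e-07, 1.44e-06 and 5.09e-07). These 3 calls held in all 19 alternatives that were fitted, 12 of which left out 1 library each. hsa_circ_1946 was called in none of the 19. Drug and cell line changed together in this difference and cannot be told apart. The PC-9 libraries in it were part of the choice of the 4, which the p-values do not allow for.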

How the results depend on the processing

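The number of circRNAs called depended on the filter on low counts and on single libraries. Without the filter the calls were 16 for gefitinib resistance, 53 for osimertinib resistance, 8 for FASN against pCMV6 and 12 for pCMV6 against NCI-H1975, instead of 124, 231, 29 and 33, and 0 and 2 of the 4 circRNAs were called for the resistance comparisons instead of 1 and 4. The cause was not tested. A fit of the 6 PC-9 libraries alone called 233 circRNAs and 2 of the 4. Leaving out 1 library gave 48 to 72 calls for gefitinib resistance, with 0 to 1 of the 4, and 115 to 176 for osimertinib resistance, with 3 to 4 of the 4. It gave 14 to 20 for FASN against pCMV6 and 9 to 21 for pCMV6 against NCI-H1975. The log2 difference of hsa_circ_1933 in pCMV6 against NCI-H1975, 0.01, became -0.15 without the filter and ran from a low of -0.41 to a high of 0.20 with 1 library left out. The difference in the share of hsa_circ_1940 with gefitinib resistance ran between -0.46 and 2.73 percentage points in that way. Of 479 alternatives over all results, 430 were labelled as unchanged. For levels this meant the same direction and side of the threshold, and for counts a value within 1.5 times. For the 72 alternatives of shares it meant direction alone, which 71 kept. Results that were not called and stayed so are among the 430. DESeq2 called 1, 4, 0, 0 and 3 of the 4 in the 5 comparisons, as edgeR did. Deviations from the group means had correlations of -0.025 to 0.034 between same-numbered libraries of compared groups, and of -0.041 to 0.031 between differently numbered ones. Counting error in low counts could hide a pairing, so this does not settle if numbers pair the libraries. A replicate block gave 111, 208, 24 and 32 calls and changed no call among the 4. With 32 reads of hsa_circ_1933 in NCI-H1975 and 2 of hsa_circ_1946 in NL20, depth limits those ratios.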

Other observations

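The table numbers each circRNA by the earliest column with a read of it, and all 4 had reads in the earliest of all, pCMV6 replicate 1. Among circRNAs tested, the median Pearson correlation of log2 CPM over the 21 libraries was 0.21 for 3353 pairs with adjacent numbers, 0.082 for 2820 pairs 10 numbers apart and 0.053 for 2826 pairs 100 numbers apart. The value of 0.96 for hsa_circ_1933 and hsa_circ_1934 cannot be set against these medians, since both were chosen as neighbours high in PC-9. The other pairs among the 4 had values between -0.18 and 0.67.

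Osimertinib-resistant replicate 2 and pCMV6 replicate 1 had the same total, 110456 reads, but their counts differed in 26167 circRNAs. hsa_circ_1940 had 42 reads in the first of these libraries and 135 in the second.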
